A study of Rattus norvegicus with 3 samples.

Results

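Transcripts of 10 endoplasmic reticulum (ER) chaperone genes were measured in RNA of extracellular vesicles, small particles enclosed by membrane and shed by cells, from cultured rat adipose-derived mesenchymal stem cells. The 10 genes, Calr, Canx, Hspa5, Hsp90b1, Pdia3, Pdia4, Pdia6, P4hb, Hyou1 and Sdf2l1, were taken by symbol from the 29684 genes of the deposited table. All 10 had at least 1 FPKM (fragments scaled to transcript length and library total) in every library. A mean of at least 1 FPKM was reached by 27900 of the 29684 genes, so this level does not set the members apart. The samples formed 1 group of 3 libraries, 1 for each batch of vesicles and labelled replicates 1 to 3, from wild type rat cells of inguinal fat, and no treatment beyond the extraction of vesicles is labelled. The labels give no age of the rats and do not say whether each batch had its own animal or culture, so p-values measure only the spread between these libraries, which may be technical. Replicate 1 held 5219920 gene counts, replicate 2 6786182 and replicate 3 6618461. With 1 group there was no treatment contrast, and the comparisons are between genes within a library. Of the markers of the source cells, Vim had 172 ± 63.0 FPKM (SD, n = 3) and Thy1 7.49 ± 1.28, and the 9 mesenchymal markers summed to 196 to 363 FPKM per library, most of it Vim. The medians of the marker lists did not put the mesenchymal list first, with 7.78 ± 1.003 FPKM for mesenchymal, 8.90 ± 0.718 for endothelial, 4.97 ± 0.476 for haematopoietic and 3.92 ± 0.794 for adipocyte markers. The 8 haematopoietic markers summed to 33.8 to 43.5 FPKM, the 5 adipocyte markers to 21.8 to 27.7 and the 5 endothelial markers to 34.5 to 43.01.

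ER chaperones fold the proteins that enter the secretory pathway. Calreticulin and calnexin hold glycoproteins through their sugar chains, BiP (Hspa5) and GRP94 (Hsp90b1) bind client proteins with the use of ATP, and the protein disulfide isomerases form and rearrange disulfide bonds. When unfolded proteins accumulate in the ER, the unfolded protein response raises the transcription of many of these genes together, through ER stress response elements in their promoters. Stromal cells secrete collagen and other matrix proteins, whose folding depends on this machinery.

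Since the genes are known as joint targets of that response, their promoters were searched for its element, CCAAT followed after a gap of 9 bases by CCACG, on both strands from 250 bases before to 50 bases after each start annotated by RefSeq (build GRCr8). The RefSeq table matched 8 of the 10 genes, with 9 windows. The element occurred in Hsp90b1, Calr, Canx and Hspa5, and in 22 of all 33469 windows of that length (0.0657%). The 250 bases before the start of these 4 genes are shown because they set the highest members of the family beside members of lower level that hold the same letters. Capitals mark the element on either strand, and each sequence reads 5′ to 3′ in the direction of the gene. They lie at chr7:23012294-23012543 (minus strand) for Hsp90b1, chr19:40213117-40213366 (plus strand) for Calr, chr10:35157858-35158107 (minus strand) for Canx and chr3:38452766-38453015 (plus strand) for Hspa5.
Hsp90b1: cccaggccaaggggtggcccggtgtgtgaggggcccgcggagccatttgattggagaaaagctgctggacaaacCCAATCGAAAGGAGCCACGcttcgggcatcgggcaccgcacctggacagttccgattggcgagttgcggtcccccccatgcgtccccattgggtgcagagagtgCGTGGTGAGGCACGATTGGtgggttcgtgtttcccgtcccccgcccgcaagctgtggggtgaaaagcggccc
Calr: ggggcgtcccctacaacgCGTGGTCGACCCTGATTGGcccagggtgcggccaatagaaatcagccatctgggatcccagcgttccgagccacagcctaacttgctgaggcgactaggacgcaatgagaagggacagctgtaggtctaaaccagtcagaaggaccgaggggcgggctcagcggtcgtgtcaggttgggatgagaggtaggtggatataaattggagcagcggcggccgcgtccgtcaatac
Canx: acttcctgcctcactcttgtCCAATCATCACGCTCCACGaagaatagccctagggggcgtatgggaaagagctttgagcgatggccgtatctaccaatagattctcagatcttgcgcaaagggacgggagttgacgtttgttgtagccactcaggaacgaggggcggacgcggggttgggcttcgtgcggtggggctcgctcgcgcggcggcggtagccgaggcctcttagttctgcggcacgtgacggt
Hspa5: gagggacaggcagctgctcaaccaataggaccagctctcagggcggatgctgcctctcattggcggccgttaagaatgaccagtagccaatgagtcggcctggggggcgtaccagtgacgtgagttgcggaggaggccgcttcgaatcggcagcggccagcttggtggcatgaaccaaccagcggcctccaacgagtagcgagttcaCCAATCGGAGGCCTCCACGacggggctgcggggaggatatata

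Hsp90b1 held the element in both orientations, from base 176 to base 158 and from base 72 to base 54 before the start. Calr, Canx and Hspa5 each held 1 exact match. It lay from base 232 to base 214 before the start in Calr, from base 230 to base 212 in Canx and from base 43 to base 25 in Hspa5. Copies with a changed letter were not searched for, so the number of elements in a promoter may be higher. The related element, ATTGG followed after a gap of 1 base by CCACG and searched in the same way, occurred in Hyou1 in the forms ATTGGCCCACG and ATTGGGCCACG, and in 17 of all windows (0.0508%). It shares its last 5 letters, CCACG, with the first element, and these letters alone occurred in 31.6% of windows. Neither element was found in the windows of Pdia4, P4hb and Sdf2l1. A match is a run of letters in a window and does not show that a factor binds there.

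Hsp90b1 and Calr stood far above the other 8 ER chaperones. Hsp90b1 encodes GRP94, the ER member of the HSP90 family (ENSRNOG00000026963, chromosome 7, 21110457 to 21124788 in mRatBN7.2). It had 127 FPKM in replicate 1, 225 in replicate 2 and 207 in replicate 3, from 3240, 6912 and 6354 counts. Calr encodes calreticulin, the calcium-binding lectin of the ER lumen (ENSRNOG00000003029, chromosome 19, 23308351 to 23313414). It had 115 FPKM in replicate 1, 218 in replicate 2 and 217 in replicate 3, from 1824, 4173 and 4165 counts. Both genes were lowest in replicate 1 and similar in replicates 2 and 3. Together they held 76.9%, 84.8% and 83.4% of the summed FPKM of the 10 genes in replicates 1, 2 and 3. By mean FPKM they ranked 62 and 64 among 22745 nuclear protein-coding genes.

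Canx, which encodes calnexin, the membrane-bound relative of calreticulin (ENSRNOG00000003343, chromosome 10, 34625191 to 34656821), followed at a lower level. It had 12.4, 18.6 and 20.5 FPKM in replicates 1, 2 and 3, from 358, 642 and 711 counts. Hspa5, which encodes the HSP70 chaperone BiP and is widely used as a marker of the unfolded protein response (ENSRNOG00000018294, chromosome 3, 18055405 to 18059891), had 15.4, 17.1 and 13.1 FPKM, from 319, 426 and 326 counts. Its lowest value was in replicate 3, unlike Hsp90b1, Calr and Canx, whose lowest was in replicate 1. The values of Canx and Hspa5 overlapped, and every one lay below every value of Hsp90b1 and Calr. Hyou1, an HSP70-like ER chaperone that serves BiP as a nucleotide exchange factor, had 9.11, 7.70 and 5.88 FPKM and was highest in replicate 1. Sdf2l1, a small ER protein that acts with BiP and its partners, had 5.05, 1.63 and 5.13 FPKM, from 43, 17 and 53 counts. It had the lowest mean of the 10 genes and the fewest counts, although Pdia3 was lower in replicate 1, and without replicate 2 the difference of Pdia3 and Sdf2l1 in log2(FPKM + 1) turned to -0.25.

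The 4 protein disulfide isomerase genes were far below Hsp90b1 and Calr. P4hb encodes the isomerase PDI, which is also a subunit of the collagen prolyl 4-hydroxylase, and had 11.4, 12.2 and 13.1 FPKM in replicates 1, 2 and 3. Pdia4 had 8.98, 7.002 and 11.3 FPKM, and Pdia6, an isomerase that binds BiP, had 6.85, 7.82 and 10.2. Pdia3, the isomerase that works on glycoproteins held by calreticulin and calnexin, had 3.26, 7.14 and 5.19 FPKM. P4hb was above Pdia3 in every library, and the ranges of Pdia4 and Pdia6 overlapped. Other genes of the isomerase family lay at 10.6 ± 0.868 FPKM (SD, n = 3) for Txndc5, 6.37 ± 1.47 for Pdia5, 5.14 ± 1.10 for Pdia2 and 4.11 ± 1.33 for the testis member Pdilt, none above the mean of P4hb. Of these, Pdia2 and Pdilt were added after their values had been seen. Pdia3 overlaps Ell3 on the other strand by 2789 bases as well as a small nuclear and a small nucleolar RNA gene, and Pdia6 overlaps Atp6v1c2 by 67 bases. The authors' handling of strand is not given in the sources used here, so reads of these overlaps are of uncertain origin.

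**Figure D1:**
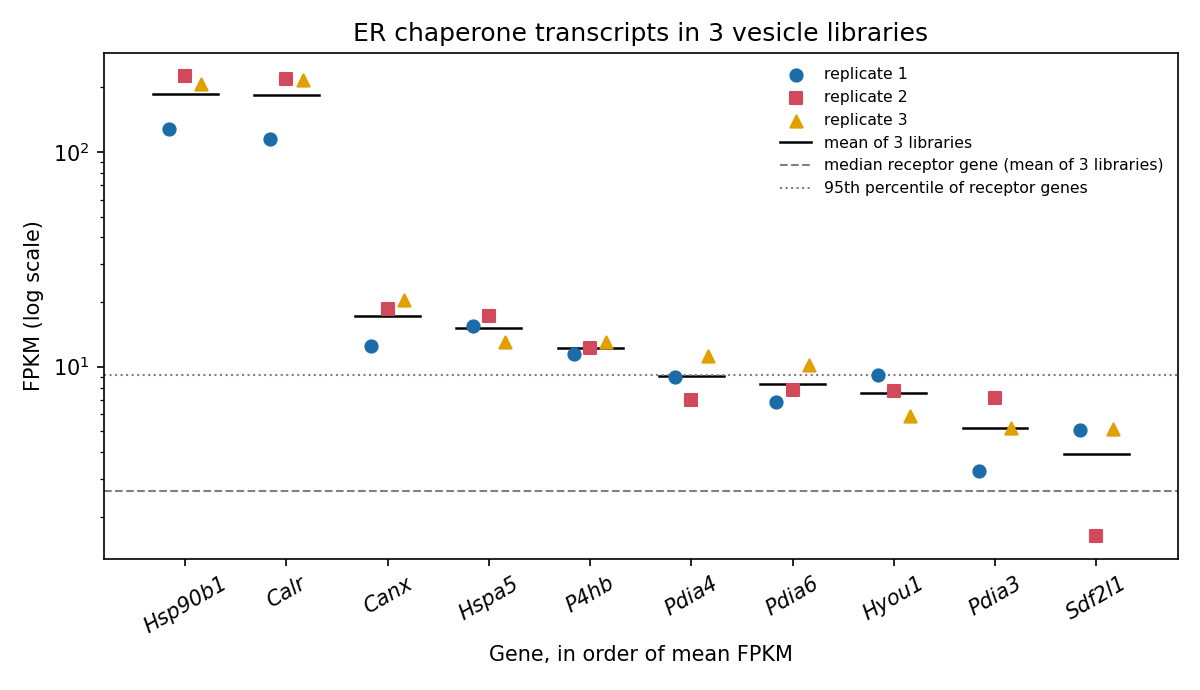
FPKM of each ER chaperone gene in the 3 libraries on a log axis, with points for replicates and a bar for the mean; the dashed line is the mean over libraries of the median olfactory and vomeronasal receptor gene and the dotted line that of their 95th percentile. Hsp90b1 and Calr lie between 115 and 225 FPKM, and every value of the other 8 genes lies at 20.5 FPKM or below.

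The level at which reads occur in genes that such cells should not express was taken from 1399 protein-coding olfactory and vomeronasal receptor genes. The median receptor gene had 2.94, 2.33 and 2.62 FPKM in replicates 1, 2 and 3, and the highest had 44.1, 33.8 and 41.2. Limma's treat test, fitted on all genes, asked whether the mean log2(FPKM + 1) lay over 2 above that of the median receptor gene, which is 5.14-fold in FPKM. It called 2 of the 10 ER chaperones, Hsp90b1 and Calr, against 1.63% of nuclear protein-coding genes and 1.85% of all genes. Hsp90b1 lay 5.65 above it (SE 0.26, adjusted p = 0.00369, limma with Benjamini-Hochberg adjustment over 29684 genes), and Calr 5.61 (SE 0.29, adjusted p = 0.00479). Both exceeded every receptor gene in every library. Without replicate 3 the same fit called 0 genes of the whole table, with 956 at an unadjusted p under 0.05, and both chaperones had an adjusted p of 0.109. Without replicate 2 it called both, with adjusted p of 0.0440 for Hsp90b1 and 0.0467 for Calr.

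Canx and Hspa5 lay 2.30 (SE 0.20) and 2.16 (SE 0.15) above it in log2(FPKM + 1), and neither passed the test (adjusted p = 1 for both, limma). By mean FPKM, 5 of the 1399 receptor genes were higher than Canx, 9 were higher than Hspa5 and 21 were higher than P4hb. Pdia4 lay 1.46 above, Pdia6 1.34, Hyou1 1.22, Pdia3 0.73 and Sdf2l1 0.35. Of the receptor genes, 64 were higher by mean FPKM than Pdia4, 83 than Pdia6, 113 than Hyou1, 267 than Pdia3 and 424 than Sdf2l1. Pdia3 and Sdf2l1 thus lay inside the range of the background, although above most receptor genes. With the threshold lowered from 2 to 1, Canx, Hspa5 and P4hb passed as well (adjusted p = 0.0148, 0.00822 and 0.0139, limma). That made 5 of 10 members, against 9.13% of nuclear protein-coding genes. Of the lists described below, 9 of 16 genes of secreted proteins, 7 of 12 cytosolic and mitochondrial relatives and 3 of 19 other ER folding genes passed. A high share was thus not particular to the ER chaperones. A member that did not pass is not shown to be absent from the vesicles. Fewer vesicles with a transcript and fewer copies in each vesicle cannot be told apart.

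The level of the nearest genes on the chromosome gave a second comparison, although such neighbours may be expressed themselves. Hsp90b1 exceeded the median of its 10 nearest protein-coding genes on the chromosome 40.9 ± 13.6-fold (SD, n = 3), and Calr 30.2 ± 11.01-fold. The highest neighbour of Hsp90b1, Ttc41, had 7.08 FPKM, and that of Calr, Nfix, had 12.5. Canx was 3.49 ± 1.11-fold, Hspa5 2.79 ± 0.319-fold and Pdia4 2.32 ± 0.868-fold above the neighbours' median. P4hb was 2.23 ± 0.340-fold and Pdia6 1.73 ± 0.299-fold above it. Canx and Hspa5, like Hsp90b1 and Calr, were higher than each of their 10 neighbours. Each other member had at least 1 higher neighbour. Hyou1 was at 1.11 ± 0.299 times the median of its neighbours, Sdf2l1 at 0.718 ± 0.349 times and Pdia3 at 0.679 ± 0.261 times, which for Hyou1 and Sdf2l1 is within the spread between libraries. The neighbours of Pdia3 included Serf2 at 69.8 FPKM and Hypk at 50.0, so its ratio is not one to a low background. The folds over neighbours were not tested.

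**Figure D2:**
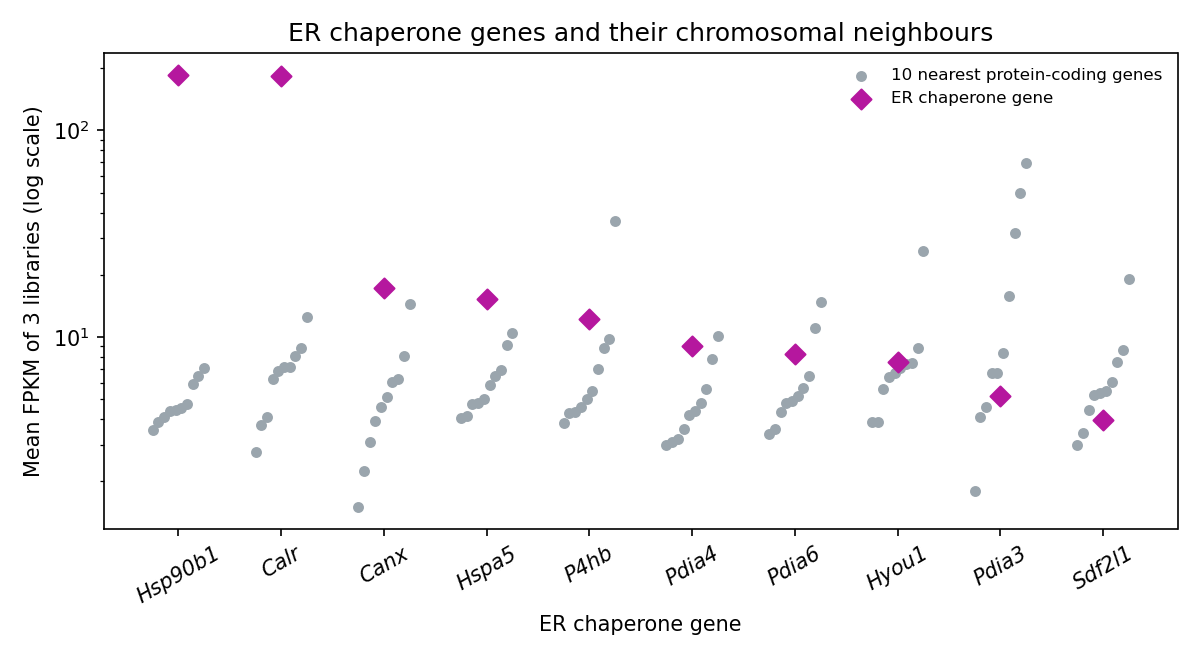
Mean FPKM over the 3 libraries, on a log axis, of each ER chaperone gene (diamond) and of its 10 nearest protein-coding genes (grey points, sorted by level). Hsp90b1 and Calr stand 40.9-fold and 30.2-fold above their neighbours' median. Only these, Canx and Hspa5 exceed each of their neighbours, and Pdia3 and Sdf2l1 lie below most of theirs.

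The order of the 10 genes by mean FPKM was Hsp90b1, Calr, Canx, Hspa5, P4hb, Pdia4, Pdia6, Hyou1, Pdia3 and Sdf2l1, and most neighbours in it were not separated. Among the 9 neighbouring pairs the difference in log2(FPKM + 1) had the same sign in all 3 libraries for 4 pairs, and exceeded its own SD for 3. The step from Calr to Canx was 3.31 ± 0.19 (SD, n = 3), with Calr 9.22-fold to 11.7-fold higher in FPKM. The steps from Hspa5 to P4hb, 0.29 ± 0.25, and from P4hb to Pdia4, 0.41 ± 0.28, were small but of 1 sign. In replicate 3 Hspa5 exceeded P4hb by only 0.002, so the shared sign of that pair rests on nearly equal values there. Hsp90b1 exceeded Calr by 0.04 ± 0.11, in 2 of 3 libraries, so the order of the pair was within the spread. Canx and Hspa5 (0.14 ± 0.45), Pdia4 and Pdia6 (0.11 ± 0.24), Pdia6 and Hyou1 (0.12 ± 0.54) and Pdia3 and Sdf2l1 (0.38 ± 1.11) did not differ beyond their spread either. Hyou1 was above Pdia3 in 3 of 3 libraries, by 0.50 ± 0.65, a difference smaller than its SD. A two-sided, exact permutation test that flips the signs cannot go below p = 0.25 with 3 libraries, and over the 9 pairs the adjusted p was 0.562 at the lowest.

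The relatives of these chaperones in other compartments were compared in the same libraries. In the HSP90 family, the ER form Hsp90b1 (186 ± 52.1 FPKM; SD, n = 3) lay between the inducible cytosolic form Hsp90aa1 (251 ± 82.5) and the constitutive cytosolic form Hsp90ab1 (141 ± 40.5). It was 0.41 ± 0.09 below Hsp90aa1 and 0.40 ± 0.01 above Hsp90ab1 in log2(FPKM + 1), each in 3 of 3 libraries. The ratio of Hsp90b1 to Hsp90ab1 in FPKM was 1.31 to 1.34 across the libraries, although both levels differed between replicate 1 and the others. The mitochondrial form Trap1 had 6.30 ± 0.775 FPKM, and Hsp90b1 was 18.1-fold to 37.7-fold above it. Annotated pseudogenes can take reads of Hsp90aa1, Hsp90ab1 and Hspa8, so the levels of these relatives are uncertain.

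In the HSP70 family the ER form lay below the most abundant cytosolic form and Hspa4, and above others. Hspa5 was 2.06 ± 0.56 below Hspa8, the constitutive cytosolic HSP70 at 69.2 ± 23.7 FPKM, in 3 of 3 libraries. Against Hspa9, the mitochondrial HSP70 at 26.0 ± 10.7 FPKM, the difference was -0.66 ± 0.61, with Hspa5 lower in 2 of 3 libraries. Hspa4, at 27.3 ± 9.73 FPKM, was higher than Hspa5 in every library. The other listed cytosolic HSP70 genes were lower than Hspa5 in mean FPKM, with Hspa2 at 7.70 ± 3.05 and the stress-inducible Hspa1a at 2.73 ± 0.318 and Hspa1b at 2.44 ± 0.598. Hyou1 was also lower than its cytosolic relative Hsph1 (9.74 ± 1.18 FPKM) in 2 of 3 libraries, by a difference of -0.34 ± 0.44 that was within the spread. Within the ER, P4hb exceeded Pdia3 by 1.14 ± 0.42 in 3 of 3 libraries. Over the 8 pairs the exact sign-flip test gave an adjusted p of 0.333 at the lowest, and 6 pairs had 1 sign in all 3 libraries. Of the calreticulin family, Calr4 had 6.70 ± 1.56 FPKM and Calr3 4.42 ± 1.66, a pair chosen after their values had been seen.

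**Figure D3:**
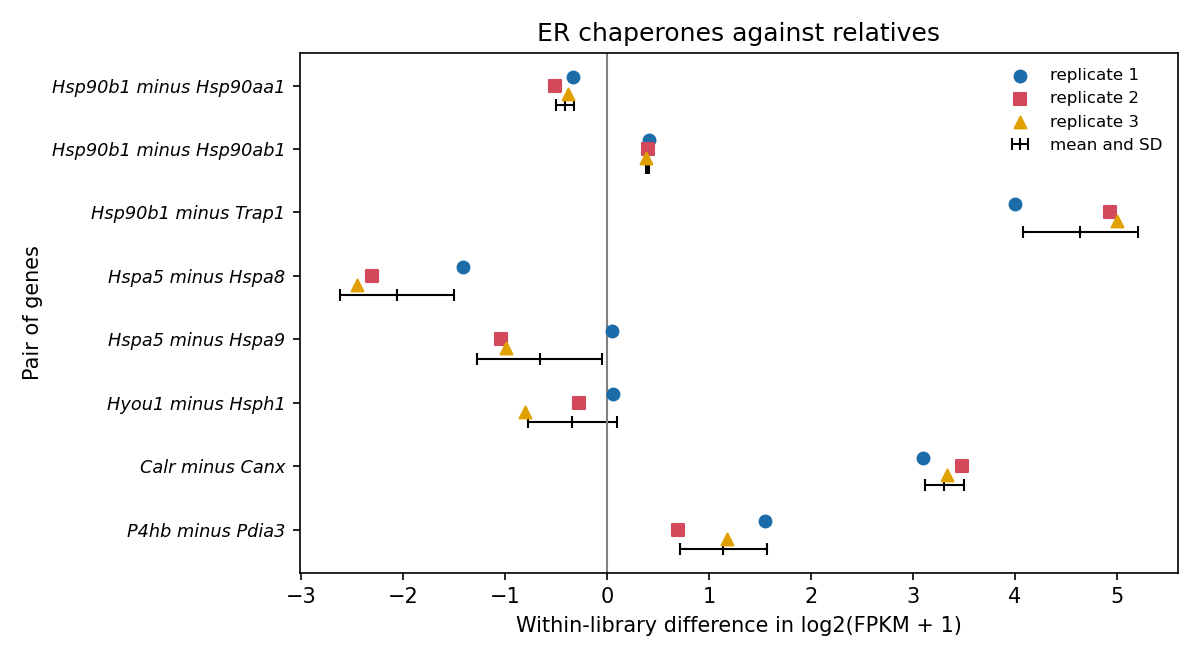
Within-library differences in log2(FPKM + 1) between an ER chaperone and a relative, with points for the 3 replicates and a bar below them for the mean and SD. Hsp90b1 lies close to the cytosolic forms Hsp90aa1 and Hsp90ab1, by -0.41 and 0.40, while Hspa5 lies 2.06 below Hspa8.

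The libraries differed in the level of members both high and low. The mean of replicates 2 and 3 was 1.70 times replicate 1 for Hsp90b1, 1.897 times for Calr, 1.57 times for Canx and 1.89 times for Pdia3. It was 1.31 times for Pdia6, 1.10 times for P4hb and 1.02 times for Pdia4. For Hspa5 it was 0.980 times, for Hyou1 0.745 times and for Sdf2l1 0.669 times. Over the receptor genes the median of this ratio was 0.828, and over the 370 nuclear protein-coding genes called above the background it was 1.62. Of those 370 genes, 304 (82.2%) were lower in replicate 1 than in both other libraries, against 24.0% of the nuclear protein-coding genes that were not called, so Hsp90b1 and Calr moved as most called genes did. Which property of the libraries moves with this was not tested. Counting error was small beside the spread for the highest genes, since the coefficient of variation between libraries was 28.0% for Hsp90b1 and 32.4% for Calr against 1.40% and 1.81% expected from counts alone. For P4hb the values were 6.60% and 5.17%, and for Sdf2l1 50.7% and 17.7%. PCR duplicates are not independent molecules, so the expected values cover counting error only.

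In 5 lists of other steps of ER protein processing, 0 of 58 genes were called by limma's treat test, beside 1.63% of nuclear protein-coding genes. The 19 other ER folding genes had 0 called and a median of 5.43 ± 0.800 FPKM (SD, n = 3), beside 4.61 ± 0.388 for all genes and 10.8 ± 1.17 for the 10 chaperones. The highest of them were Ppib, the ER cyclophilin, at 17.3 ± 2.40, Serpinh1, the collagen chaperone HSP47, at 11.3 ± 1.27, and the isomerase gene Txndc5 at 10.6 ± 0.868. Among 17 measured genes of the translocon and signal recognition, which bring nascent chains into the ER, 0 were called, with Srp14 at 35.8 ± 12.2 FPKM, Sec61b at 28.6 ± 18.3 and Srp9 at 20.1 ± 4.82. The 7 measured genes of the oligosaccharyl transferase, which attaches sugar chains, had 0 called and were led by Rpn1 at 11.9 ± 2.36. Of the 12 genes of ER-associated degradation 0 were called, with the ATPase gene Vcp highest at 10.6 ± 3.19. The 3 KDEL receptor genes, whose proteins return escaped chaperones to the ER, had 5.73 to 7.68 FPKM, and 0 were called. At an unadjusted p under 0.05, limma's treat test passed 4 of these 58 genes (6.90%), Srp14, Sec61b, Srp9 and Ppib, beside 3.58% of nuclear protein-coding genes and 3.87% of all genes.

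The unfolded protein response genes were measured for comparison with Hspa5. Of 10 measured genes 0 were called by limma's treat test, beside 1.63% of nuclear protein-coding genes, and their median was 5.76 ± 1.04 FPKM. At an unadjusted p under 0.05 the test passed 2 of the 10, Atf4 and Ddit3, beside 3.58% of nuclear protein-coding genes. Atf4, a transcription factor whose translation rises in the stress response, had 26.9 ± 8.59 FPKM, and Ddit3, which encodes CHOP, had 18.2 ± 3.12. Xbp1, whose mRNA is spliced by the sensor Ern1, had 8.82 ± 2.003, while Ern1 had 5.81 ± 1.14 and Herpud1 4.42 ± 0.310. Of the 14 measured genes other than the members that hold the same promoter element, 1 was called, Hnrnpa3, beside 1.63% of nuclear protein-coding genes. The median of the 14 was 5.53 ± 0.626 FPKM. Among these, Xbp1, Creld2 (5.69 ± 1.05), Dnajc3 (5.09 ± 0.303) and Ero1b (1.85 ± 0.414) belong to the lists of the response or of ER folding. Calr4, of the calreticulin family, is also among them. Hsp90b1 and Calr, and Canx and Hspa5 at about an order of magnitude less, thus held the same letters in their promoters.

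The deposited KEGG pathway of protein processing in the ER gave a wider list. The term was listed for 169 genes, 9 of them members, since Sdf2l1 carried no such term. Of the other 160 genes, limma's treat test called 6 (3.75%, beside 1.63% of nuclear protein-coding genes), namely Hsp90aa1, Hsp90ab1, Ubxn1, Hspa8, Rrbp1 and Map2k7. Of these, Rrbp1 encodes a ribosome-binding protein of the ER membrane and had 66.0 ± 18.4 FPKM (SD, n = 3), and the cytosolic cofactor gene Ubxn1 had 74.8 ± 16.7. The median of the 160 genes was 5.68 ± 0.450 FPKM. Among 16 genes of secreted matrix proteins and their regulators, which enter the same pathway, limma's treat test called 0, beside 1.63% of nuclear protein-coding genes. At an unadjusted p under 0.05 it passed 5 of the 16, beside 3.58%. Col1a1, Sparc, Igfbp4 and Bgn missed the cutoff narrowly (adjusted p = 0.0524, 0.0527, 0.0561 and 0.0603, limma). The median of the 16 genes was 15.0 ± 3.57 FPKM, with Sparc at 40.6 ± 12.5, Igfbp4 at 34.8 ± 9.86 and Bgn at 34.5 ± 8.89. Hsp90b1 and Calr were thus above every gene of this list, while Canx at 17.2 ± 4.21 and P4hb at 12.2 ± 0.808 lay within their range of 2.90 to 40.6.

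**Figure D4:**
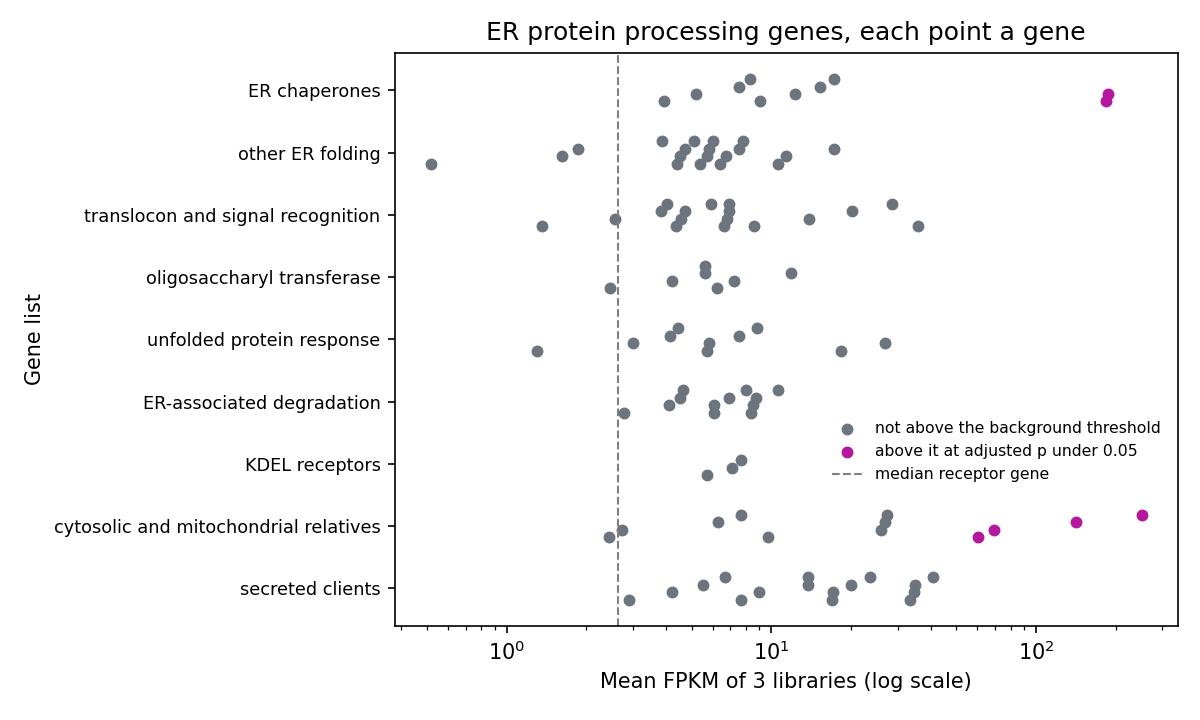
Mean FPKM over the 3 libraries, on a log axis, of each measured gene (point) in lists of ER protein processing, of relatives in other compartments and of secreted proteins; coloured points passed limma's treat test above the receptor background and the dashed line is the median receptor gene. Among the ER lists drawn here only Hsp90b1 and Calr are coloured, and 4 cytosolic or mitochondrial relatives are.

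The genes whose levels in the 3 libraries were closest to the mean of the 10 chaperones were Jcad at 16.9 ± 1.81 FPKM (SD, n = 3), Psmb6 at 16.9 ± 1.65 and Taldo1 at 16.8 ± 2.57. Their Euclidean distances in log2(FPKM + 1) over the 3 libraries were 0.06, 0.09 and 0.09. That mean, taken on the log scale, was 16.4 FPKM, close to Canx and Hspa5 and far from Hsp90b1 and Calr. For Calr the closest were Cdk11b at 187 ± 64.1 FPKM, Hsp90b1 itself and Htatsf1 at 174 ± 55.7. For Hsp90b1 they were the ribosomal protein gene Rps15 at 189 ± 47.3, Ptms at 195 ± 58.2 and Cdk11b. The likeness of single genes was computed after the levels had been seen, and with 3 libraries it reflects level more than pattern.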

How the data were processed

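RNA of extracellular vesicles was sequenced for 1 group of 3 libraries, made, per the labels' protocols, with a low-input kit for total RNA that keeps strand and with removal of ribosomal cDNA. Per the submitters' processing notes, cutadapt 1.9 and FastQC were used with build mRatBN7.2; for the aligner and counter, a name is not given in the sources used here. The deposited table gives, per the file headers, raw gene counts and the authors' FPKM for each library. FPKM divides by length and by a library total of the authors, so a large RNA class changes all other values. The precision of a gene follows its counts, from 5219920 to 6786182 per library.

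FPKM was used for levels, since genes of different length were compared; with 1 group no count test applies. Limma 3.58.1 (R 4.3.3) fitted log2(FPKM + 1), less that of the median receptor gene in the same library, for all 29684 genes, with treat at a threshold of 2, a prior variance that follows the level and Benjamini-Hochberg adjustment at 0.05. This scale understates changes of low genes. The threshold and the form of the prior were taken from an earlier fit of these data, where they had been chosen after the values were seen. The fit was tested on simulated data. Alternatives used CPM, TMM factors (edgeR 4.0.16), DESeq2 1.42.0 size factors, another pseudocount, filter, prior and threshold, and each replicate left out. Pairs of genes were compared within libraries by exact sign-flip tests. Named genes were all members, the listed relatives and, in each other list, the called or highest genes; others are marked. Pathway terms were not used where their cell was blanked, which held for 20 genes. The members and lists were chosen with earlier results of these data known. Columns of other samples were absent, and the authors' mean column was not used.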

Additional observations from a re-analysis of the deposited data

How the results depend on the processing

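Hsp90b1 and Calr were the 2 ER chaperones called by limma's treat test under TMM or DESeq2 scaling, after rescaling without mitochondrial and structural RNA, with a pseudocount of 0.1, a filter at a mean FPKM of 1, a robust or single prior variance and a threshold of 3; with genomic neighbours as the reference, an alternative added after seeing the data, 2 members exceeded 5.14-fold in every library. Over all settings Hsp90b1 lay 5.43 to 6.68 and Calr 5.39 to 6.01 above the reference. With CPM, where length is not divided out and long genes gain, 6 members were called and 3737 genes in all against 549, and with a threshold of 1, 5 members and 2687 genes. With a replicate left out, 0 to 2 members were called; without replicate 3 both had an adjusted p of 0.109, and the whole table had 0 calls, against 224 without replicate 2 and 771 without replicate 1. Over all genes, the pseudocount of 0.1 called 823 and the threshold of 3 called 220. With CPM, Sdf2l1 turned to -0.32 against the receptor median, Hspa5 minus P4hb to -0.083, Pdia4 minus Pdia6 to -0.048 and Pdia6 minus Hyou1 to -0.33. The number of neighbouring pairs with 1 sign in every library was 4, and 5 to 7 with a replicate left out, where fewer libraries have to match. Leaving out a replicate moved Hsp90b1 minus Calr to between -0.0104 and 0.10, Canx minus Hspa5 to between -0.0899 and 0.36, Pdia4 minus Pdia6 to between -0.0026 and 0.24, Pdia6 minus Hyou1 to between -0.17 and 0.36 and Pdia3 minus Sdf2l1 to between -0.25 and 0.82. No paired analysis was possible because there was 1 group. Counting alone gives a coefficient of variation of 17.7% for Sdf2l1 (17 to 53 counts) and 8.60% for Pdia3 (82 to 216), against 50.7% and 37.3% measured.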
